A study of Mus musculus with 16 samples.

Results

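The collagen genes are described here: the 44 genes whose symbol has the form of a collagen chain (Col, a type number, a and a chain number) and that had at least 50 UMIs (unique molecular identifiers, counts of single captured transcripts) summed over the nuclei of 16 libraries. They were chosen from 32285 genes. The pattern took 45 rows, and the remaining row, Col4a3bp, encodes a ceramide transfer protein and no collagen chain, so it was left out. Every pattern row met the UMI minimum, so there is no gene just outside it, and the gene nearest to it, Col17a1, had 552 UMIs. Col25a1 had the most, 166609 UMIs. Because the UMI sums chose the members, their overall level is not a finding.

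Collagens are extracellular proteins built from chains with long glycine-rich repeats that wind around each other into a helix. Fibrillar collagens (I, II, III, V, XI, XXIV and XXVII) form the fibres of connective tissue, and collagen IV forms the sheet of basement membranes. Fibril-associated collagens sit on fibres, short-chain collagens form networks, and transmembrane collagens are cell-surface proteins whose outer part can be shed. In the brain, dense collagen matrix is limited to the meninges, vessel walls and choroid plexus, while several transmembrane and fibril-associated collagens are made by neurons and act at synapses.

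RNA was read from single nuclei of the hippocampus. The mice were female, 9 months old, and fell into 4 groups with 4 libraries each. Mice with intact Ch25h were positive (Ch25h+/+ Tau+) or negative (Ch25h+/+ Tau-) for tau, and so were mice labelled as lacking it (Ch25h-/- Tau+ and, as the tau-negative group, Ch25h-/- Tau-). Ch25h encodes cholesterol 25-hydroxylase, the enzyme that makes 25-hydroxycholesterol, and tau is the microtubule-binding protein that aggregates in tauopathies. The labels give the tau state as positive or negative and do not name the tau allele, its promoter or the cells that express it, nor which part of Ch25h is deleted or how many mice went into a library, so p-values measure the spread between these libraries.

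Each library kept 7601 to 10567 nuclei after doublet removal, 136828 in all, with 40767136 to 64617227 UMIs and a median of 3646.5 to 6244.5 UMIs per nucleus. Ch25h was read at 8 to 36 UMIs per library in the libraries labelled Ch25h+/+ and at 10 to 30 in those labelled Ch25h-/-, so its counts do not separate the labels. The 120 pairs of libraries shared 10 to 40 nucleus barcodes each, and 2700 of 145135 distinct barcodes (1.86%) occurred in more than a single library. Libraries numbered 1 and 2 stood apart from those numbered 3 and 4 on the leading axis of the differences from the group means, with 16 of 16 libraries separated over all nuclei. In the classes of nuclei described below, 16 of 16 were separated in astrocytes and in dentate granule neurons and 15 of 16 in microglia. Only 9 of 16 were separated in fibroblasts and 9 of 16 in inhibitory neurons. The labels name no batch for this split, and each group holds 2 libraries of either kind. Nuclei were clustered without the collagen genes and the clusters named from marker genes, so each class name below means nuclei like that cell type. There were 18 classes, and 4.45% to 10.8% of a library's nuclei stayed in unnamed clusters. Fibroblasts numbered 4 to 393 nuclei per library and choroid plexus epithelial cells 0 to 292, which leaves their levels imprecise in the thinnest libraries.

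The sequences shown first belong to collagen IV, because its 6 genes lie in head-to-head pairs that start from shared or adjacent promoter DNA and because Col4a6 is among the genes called with tau below. Coordinates are on GRCm38. Col4a1 (chr8:11198423-11312826, minus strand) and Col4a2 (chr8:11312805-11449287, plus strand) overlap at their starts by 22 bases. Col4a4 (chr1:82448423-82586849, minus strand) and Col4a3 (chr1:82586921-82722059, plus strand) start 72 bases apart, and Col4a6 (chrX:141165403-141474076, minus strand) and Col4a5 (chrX:141475385-141689234, plus strand) start 1309 bases apart. The stretches below are from the RefSeq promoter windows of GRCm38.p6, each written 5′ to 3′ on the strand given and cut to the bases that no exon covers, except for the shared start of Col4a1 and Col4a2. Capitals mark a GC box (GGGCGG or its reverse complement CCGCCC) or a CCAAT box (CCAAT or its reverse complement ATTGG).

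Col4a1 and Col4a2, overlap of the starts, chr8:11312805-11312826, minus strand: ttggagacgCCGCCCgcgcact

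Col4a4, between the starts of Col4a4 and Col4a3, chr1:82586850-82586920, minus strand: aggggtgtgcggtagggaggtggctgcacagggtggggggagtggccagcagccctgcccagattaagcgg

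Col4a6, before its start, chrX:141474077-141474326, minus strand: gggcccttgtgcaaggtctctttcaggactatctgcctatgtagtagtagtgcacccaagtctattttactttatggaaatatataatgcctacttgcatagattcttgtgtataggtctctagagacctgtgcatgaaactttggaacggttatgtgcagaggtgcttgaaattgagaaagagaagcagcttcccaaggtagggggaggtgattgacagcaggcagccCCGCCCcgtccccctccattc

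Col4a5, before its start, chrX:141475169-141475384, plus strand: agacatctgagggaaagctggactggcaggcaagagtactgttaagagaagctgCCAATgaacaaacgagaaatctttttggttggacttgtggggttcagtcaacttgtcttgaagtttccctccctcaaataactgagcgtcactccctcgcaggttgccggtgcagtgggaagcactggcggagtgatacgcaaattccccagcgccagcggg

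The whole window of each of these genes runs from 250 bases before to 50 bases after the start in RefSeq, which for Col4a5 lies 34 bases downstream of the start given above. The Col4a6 window held 1 GC box, no CCAAT box and no TATA box (TATAAA or TTTATA), and the Col4a5 window 1 GC box and 1 CCAAT box. The Col4a4 window held none of the 3 motifs, although 63.3% of its bases were G or C. Over 32851 RefSeq mouse promoters of this length, 35.7% held a GC box, 37.4% a CCAAT box and 13.6% a TATA box on either strand. Of the 35 collagen genes with a promoter entry, 22 held a GC box, 13 a CCAAT box and 5 a TATA box. These matches describe letters in a window and were not tied to any measured binding.

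Levels are given in CPM, the UMIs of the gene scaled to 1000000 UMIs of the class, as the mean ± SD over the libraries with at least 10 nuclei of that class, and compare classes within a gene. They do not compare genes, since the counts are not scaled by transcript length. The class in which a gene read highest was fibroblasts for 15 genes, choroid plexus epithelial cells for 6, and endothelial cells, microglia and mural cells (pericytes and smooth muscle) for 3 each. The remaining 14 genes were spread over astrocytes, ependymal cells, inhibitory neurons, CA3 and CA1 pyramidal neurons, oligodendrocyte-lineage cells, Cajal-Retzius cells, macrophages of the brain's borders and layer 6b-like neurons. These placements describe the classes and were not tested. Those in mural cells, Col7a1, Col10a1 and Col28a1, rest on 9, 4 and 8 UMIs there, with an SD above the mean, and are uncertain.

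**Figure D1:**
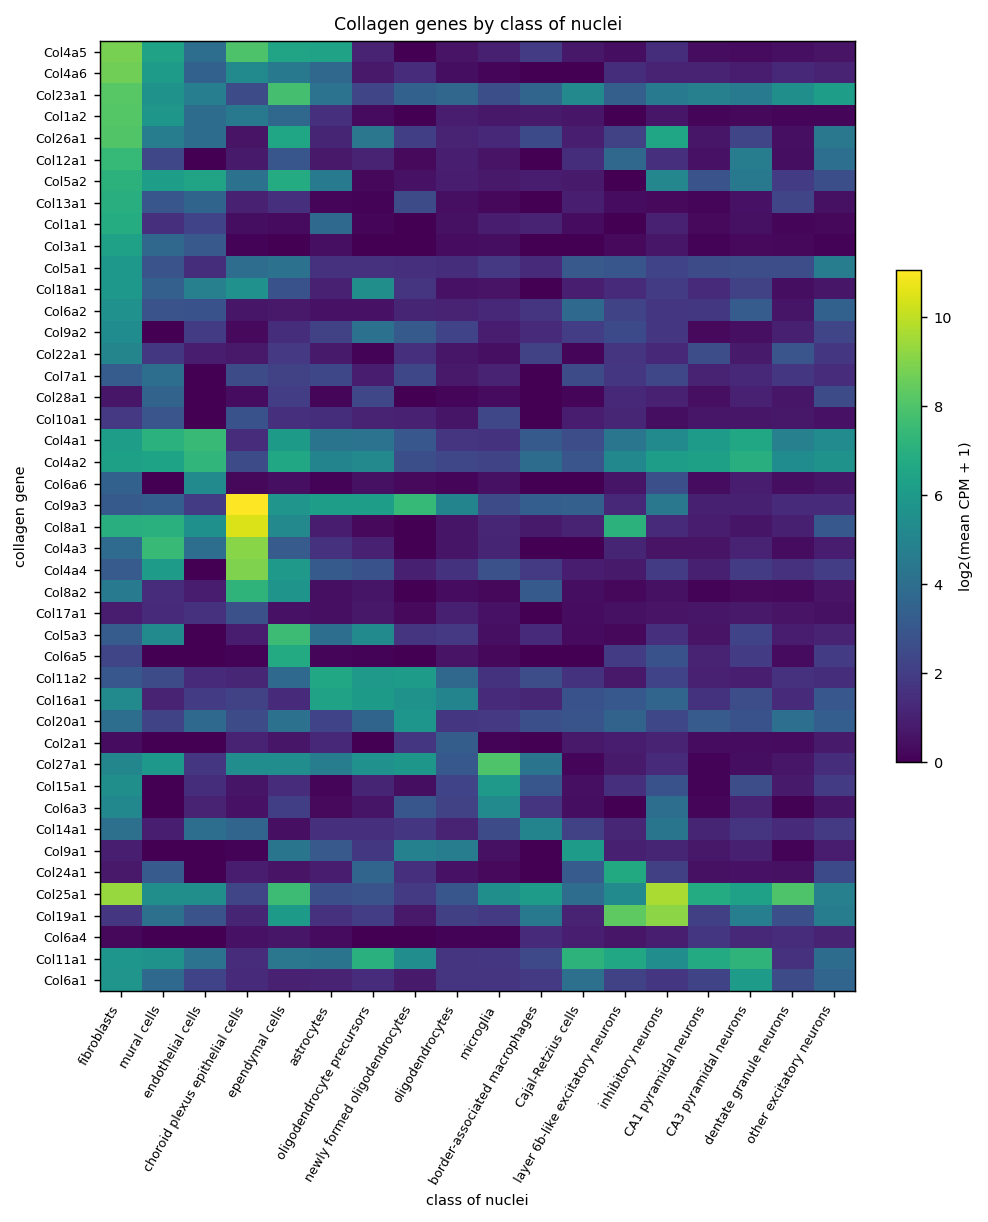
Heat map of the 44 collagen genes (rows, ordered by the class in which each read highest) over the 18 classes (columns), coloured by the log2 of the mean CPM + 1. The strongest columns are fibroblasts and choroid plexus epithelial cells, and single rows stand out in neurons and glia, such as Col19a1 and Col25a1 in inhibitory neurons.

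Among the fibrillar collagens, the chains of collagen I read highest in fibroblasts, the collagen-producing cells of the meninges and vessel walls. Col1a2 was at 282 ± 102 CPM there (n = 15, range 149 to 509) against 56.1 ± 50.6 in mural cells (n = 13), and Col1a1 at 113 ± 33.04 against 12.8 ± 3.73 in astrocytes (n = 16). Col3a1, which co-assembles with collagen I in elastic tissues, was at 79.6 ± 30.8 in fibroblasts and 12.4 ± 24.4 in mural cells. Col5a1 and Col5a2 encode chains of the collagen that nucleates collagen I fibres. Col5a1 was at 58.7 ± 20.2 in fibroblasts, and Col5a2 at 137 ± 26.1 there and 111 ± 116 in ependymal cells, which line the ventricles. The spread of Col5a2 in ependymal cells, 41.2 to 497 between libraries, does not separate the 2 classes. Their partner chain Col5a3 read highest in ependymal cells, at 192 ± 65.8 (n = 15), with 38.2 ± 8.66 in oligodendrocyte precursors.

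The other fibrillar genes read highest outside the fibroblasts. Col27a1 was at 258 ± 65.8 CPM in microglia, the brain's resident macrophages, with 58.1 ± 36.1 in mural cells. Col11a2 was at 96.1 ± 20.3 in astrocytes, 69.03 ± 37.5 in newly formed oligodendrocytes and 61.95 ± 14.6 in oligodendrocyte precursors. Col11a1, its partner chain in cartilage, was at 146 ± 144 in CA3 pyramidal neurons, 142 ± 116 in Cajal-Retzius cells, the reelin-producing neurons of the outer layer, and 130 ± 21.9 in oligodendrocyte precursors. Between libraries it spanned 30.9 to 486 in CA3 neurons and 30.8 to 451 in Cajal-Retzius cells, so the order of these 3 classes is not resolved. Col24a1 was at 104 ± 54.5 in the layer 6b-like excitatory neurons and 11.1 ± 3.99 in oligodendrocyte precursors, the next class. Col2a1, the main cartilage collagen, was at 8.71 ± 2.24 in oligodendrocytes.

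The genes of each genomic pair of collagen IV read highest in the same class. Col4a1 and Col4a2 encode the chains of nearly all basement membranes. Col4a1 read highest in endothelial cells (178 ± 54.6 CPM, n = 12), with 134 ± 41.6 in mural cells and 94.6 ± 18.2 in CA3 pyramidal neurons. Col4a2 was at 155 ± 61.8 in endothelial cells and 127 ± 23.8 in CA3 neurons, which do not differ beyond their spread, and at 97.03 ± 36.5 in ependymal cells. Col4a3 and Col4a4, chains of specialised basement membranes such as that of the kidney filter, read highest in choroid plexus epithelial cells, the secretory epithelium that makes cerebrospinal fluid, at 545 ± 107 and 481 ± 84.1 CPM (n = 13). A Col4a3 UMI was found in 79.6% of choroid nuclei against 2.39% of fibroblast nuclei. In mural cells Col4a3 was at 180 ± 91.96 and Col4a4 at 66.8 ± 45.4. Col4a5 and Col4a6 read highest in fibroblasts, at 444 ± 198 and 403 ± 180, and Col4a5 was also at 246 ± 39.1 in the choroid plexus, where Col4a6 was at 37.4 ± 7.72.

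Over the 18 class means, Spearman's rho was 0.965 for Col4a1 with Col4a2, 0.576 for Col4a3 with Col4a4 and 0.521 for Col4a5 with Col4a6. Of the other pairs computed within a single collagen type, the values ranged from -0.063 to 0.806, below the value of Col4a1 with Col4a2. It was 0.783 for Col1a1 with Col1a2, 0.806 for Col6a1 with Col6a2 and 0.465 for Col8a1 with Col8a2. Among the collagen IX genes it was 0.562 for Col9a1 with Col9a2, 0.406 for Col9a1 with Col9a3 and 0.243 for Col9a2 with Col9a3, and for Col11a1 with Col11a2 it was -0.063. Col9a1 and Col19a1, which lie tail to tail on chromosome 1 with their ends 9206 bases apart, gave -0.235. Col3a1 and Col5a2, neighbours on chromosome 1 with their ends 24615 bases apart, gave 0.520. Pearson's r on the log2 levels gave another order. It was 0.970 for Col4a1 with Col4a2, 0.810 for Col4a3 with Col4a4 and 0.924 for Col4a5 with Col4a6. For the other pairs within a single collagen type it ranged from 0.064 (Col11a1 with Col11a2) to 0.856 (Col6a1 with Col6a2). These are descriptions over 18 points that share libraries and differ in depth. Reads of Col4a1 and Col4a2 in their overlap cannot be told apart without strand.

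**Figure D2:**
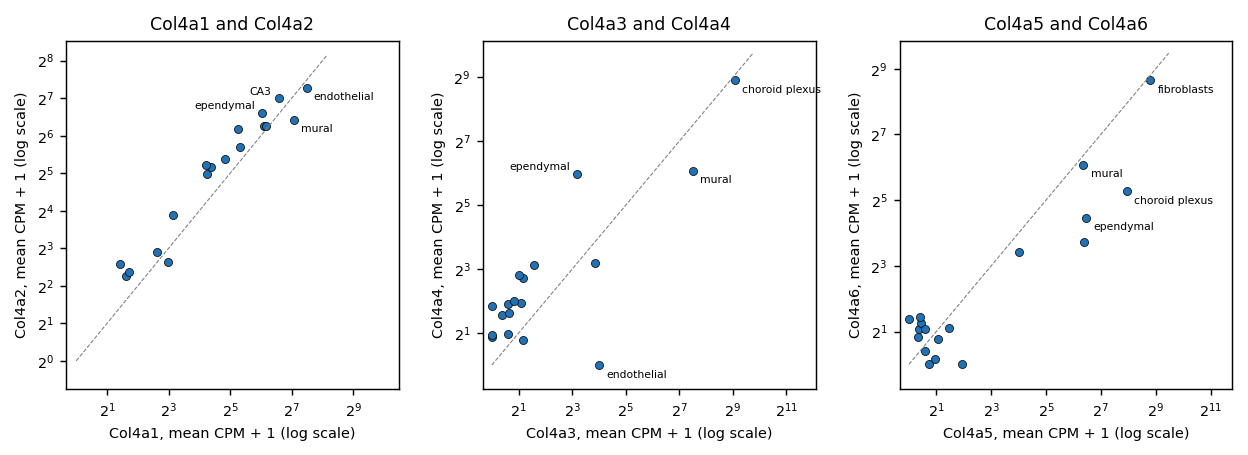
Mean CPM + 1 of the genes of each collagen IV pair plotted against each other (log axes, 1 dot per class, dashed line at equal values). Each pair leads in another class: endothelial cells for Col4a1 and Col4a2, choroid plexus for Col4a3 and Col4a4, fibroblasts for Col4a5 and Col4a6.

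The beaded-filament collagen VI genes encode the microfibril collagen found around cells. Col6a1 was at 68.5 ± 17.99 CPM in CA3 pyramidal neurons and 53.7 ± 19.1 in fibroblasts. Col6a2 was at 46.98 ± 23.3 in fibroblasts and 12.6 ± 11.8 in Cajal-Retzius cells, the next class. Col6a3 was at 37.03 ± 18.5 in microglia and 34.8 ± 12.9 in fibroblasts, which do not differ beyond their spread. In inhibitory neurons Col6a3 was at 14.9 ± 15.7, with 100.4 ± 63.8 (n = 12, range 0 to 185) in cluster 44 of that class and no mean above 1.002 in its other 4 clusters. Of the barcodes of cluster 44, 23.2% were called doublets and left out, and 23.0% came from 1 library. The alternative chains were elsewhere. Col6a5 was at 108 ± 57.4 in ependymal cells and 5.83 ± 2.77 in inhibitory neurons, the next class, Col6a6 at 37.6 ± 42.7 in endothelial cells from 35 UMIs, and Col6a4 at 2.38 ± 3.17 in CA1 pyramidal neurons from 248 UMIs. The spread of the last pair leaves their placement uncertain. Col7a1, the collagen that anchors epithelia, was at 14.8 ± 19.1 in mural cells from 9 UMIs.

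The short-chain genes Col8a1 and Col8a2, whose products form sheet-like networks under endothelia and epithelia, read highest in the choroid plexus, at 1422 ± 299 CPM (range 1041 to 1917) and 143 ± 27.8. Col8a1 was also at 135 ± 44.1 in layer 6b-like neurons and 130 ± 88.6 in mural cells. Col10a1, the cartilage growth-plate collagen, had 4 UMIs behind its mural level of 6.57 and 54 behind its choroid level of 5.81, and it overlaps Nt5dc1 on the other strand.

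The fibril-associated genes had a wide spread of classes. Col9a3, a chain of a collagen that coats cartilage fibres, was at 2136 ± 358 CPM in choroid plexus epithelial cells (range 1637 to 2818). Its partner chain Col9a2 was at 40.5 ± 15.96 in fibroblasts and 16.7 ± 6.45 in oligodendrocyte precursors. Col9a1 was at 67.01 ± 58.3 in Cajal-Retzius cells, 28.1 ± 27.4 in newly formed oligodendrocytes and 23.9 ± 7.23 in oligodendrocytes. All 347 Col9a1 UMIs of the Cajal-Retzius class lay in cluster 51 (led by Ebf2 and Ebf3) and 0 in cluster 50 (led by Ndnf and Trp73), so the level holds for a part of that class. Barcodes of cluster 51 were found in 11 of the 16 libraries. Col19a1, which is made by interneurons and is known for its part in forming inhibitory synapses, was at 557 ± 82.1 in inhibitory neurons, 318 ± 62.1 in layer 6b-like neurons and 25.4 ± 7.39 in CA3 neurons.

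The other fibril-associated genes were spread as widely. Col16a1 was at 80.7 ± 47.6 CPM in astrocytes (range 29.5 to 201) and 63.9 ± 19.8 in oligodendrocyte precursors, an order that the spread does not resolve. Col12a1 was at 167 ± 54.7 in fibroblasts and 23.9 ± 10.01 in CA3 neurons, and Col22a1 at 31.3 ± 17.4 in fibroblasts. Col20a1 read highest in newly formed oligodendrocytes (55.4 ± 52.1) and Col14a1 in border-associated macrophages (30.8 ± 31.4 from 26 UMIs), with 18.5 ± 6.45 in inhibitory neurons.

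Of the transmembrane collagens, Col25a1, found in amyloid plaques and needed for motor axons to reach muscle, was at 800 ± 107 CPM in inhibitory neurons, 658 ± 314 in fibroblasts (range 109 to 1210) and 254 ± 30.5 in dentate granule neurons. Col23a1 was at 289 ± 109 in fibroblasts and 221 ± 314 in ependymal cells. Col13a1, a collagen of cell adhesion sites, was at 124 ± 57.0 in fibroblasts and did not exceed 10.7 in any other class. Col17a1, the hemidesmosome collagen of skin, was at 5.76 ± 4.66 in the choroid plexus from 51 UMIs. The multiplexins Col15a1 and Col18a1 are basement-membrane collagens whose ends are released as endostatin-like fragments. Col15a1 was at 59.8 ± 14.7 in microglia and 44.9 ± 20.7 in fibroblasts, and Col18a1 at 57.8 ± 30.9 in fibroblasts and 47.5 ± 15.8 in the choroid plexus. Col26a1 was at 266 ± 67.5 in fibroblasts and 90.7 ± 14.9 in inhibitory neurons, and Col28a1 at 10.5 ± 17.02 in mural cells from 8 UMIs.

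Within the inhibitory neurons the genes separated by subclass. Col25a1 was at 1602 ± 223 CPM in Vip, 1027 ± 154 in Lamp5, 449 ± 80.7 in Sst and 264 ± 81.3 in Pvalb interneurons (n = 16 each). Col19a1 had another order, with 1031 ± 171 in Vip, 702 ± 136 in Sst, 474 ± 72.1 in Pvalb and 168 ± 35.5 in Lamp5 interneurons. Col14a1 was at 54.6 ± 30.2 in Vip and 26.96 ± 13.97 in Lamp5 interneurons, and at 5.45 ± 6.26 in Sst and 3.62 ± 2.21 in Pvalb interneurons. All 3 genes read highest in the Vip interneurons, and Lamp5 interneurons came next for Col25a1 and Col14a1 and Sst interneurons for Col19a1.

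The fibroblasts formed 2 clusters with different collagens, numbered 26 (led by Slc6a13, Aldh1a2 and Lama1) and 43 (led by Slc47a1, Bnc2 and Prdm6). In the 12 libraries with at least 10 nuclei of both, Col4a5, Col4a6, Col13a1, Col15a1, Col22a1 and Col27a1 were higher in cluster 26 in 12 of 12 libraries. Col4a5 was at 535 ± 126 CPM there against 35.97 ± 17.7, and Col4a6 at 527 ± 146 against 27.2 ± 25.99. Col6a1, Col6a2, Col8a1, Col8a2 and Col25a1 were higher in cluster 43 in 12 of 12 libraries, Col25a1 at 2280.04 ± 812 against 18.7 ± 14.5. The collagen I genes differed less, with Col1a2 at 314 ± 98.7 in cluster 26 and 204 ± 63.2 in cluster 43, higher in the former in 11 of 12. These clusters were found from other genes of the same nuclei, so the contrast is a description with no test.

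**Figure D3:**
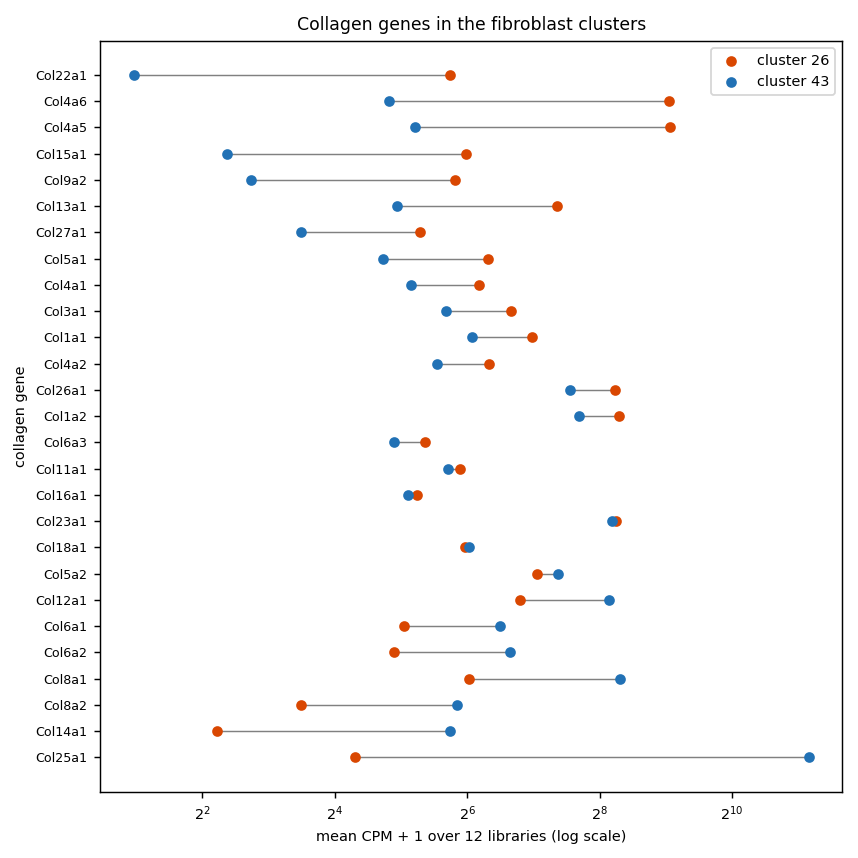
Mean CPM + 1 over 12 libraries (log axis) in fibroblast clusters 26 and 43 (dots, joined by a line for each gene) for the collagen genes that reached 20 CPM in either. Col4a5 (535 and 35.97 CPM) and Col4a6 (527 and 27.2) stand far higher in cluster 26, and Col25a1 (18.7 and 2280.04) shows the opposite order.

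The genotype comparisons were made on UMI sums per library and class with edgeR's quasi-likelihood test, and a gene was called at a Benjamini-Hochberg adjusted p under 0.05 over all genes of that class and contrast. Of the 18 classes 16 had enough nuclei, and 42 of the 44 genes passed the low-count filter in at least 1 of them, which gave 232 gene-by-class tests per contrast. Col10a1 and Col17a1 passed in none, and the border-associated macrophages had no collagen gene past the filter. Fibroblasts carried 30 tested collagen genes, astrocytes 18, the choroid plexus 13, oligodendrocyte precursors and oligodendrocytes 12 each and microglia 4.

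Tau-positive libraries had higher Col4a6, Col27a1 and Col9a3 in astrocytes, lower Col6a3 in microglia and higher Col16a1 in oligodendrocyte precursors and oligodendrocytes over both Ch25h genotypes. Col9a2 in astrocytes was also called higher, but it entered the test through Tau+ libraries only. These are 7 calls among the 232 tests, 6 without Col9a2, where 0.807% of all genes over the 16 classes were called. In all, 5 of the 232 tests had libraries of only 1 tau state at the low-count cutoff. In further tests both states had libraries there, but 1 state alone reached the number needed. Col6a4 in CA1 pyramidal neurons, for example, had 4 Tau+ libraries and 1 Tau- library at the cutoff, where 4 were needed. Within Ch25h+/+ there were 2 calls, Col4a6 in astrocytes and Col6a3 in microglia, against 0.182% of all genes. Within Ch25h-/- none of the 232 tests was called by edgeR, against 0.112% of all genes, and 38 had an unadjusted p under 0.05, against 7.22%. The unadjusted counts were 30 in Ch25h+/+ (6.08% of all genes) and 44 over both genotypes (9.07%). DESeq2 called 3 in Ch25h+/+ (0.311% of all genes), 3 in Ch25h-/- (0.353%) and 10 over both (1.06%). The median collagen log2 fold change in astrocytes over both genotypes was 0.42 over the 18 tested genes, with 15 above 0, and 0.00 over all genes tested there, of which 49.6% were above 0. In the other 14 classes with a tested collagen gene the median ranged from -0.46 in mural cells, with 1 gene, to 0.19 in CA1 pyramidal neurons, with 9 of 16 above 0. It was -0.37 in microglia (1 of 4 above 0), -0.33 in ependymal cells (3 of 11), -0.18 in CA3 pyramidal neurons (8 of 22) and -0.10 in oligodendrocytes (4 of 12).

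Col4a6 was the collagen gene with the largest called fold change. In astrocytes of Ch25h+/+ Tau+ it was at 26.9, 22.4, 6.38 and 24.5 CPM in the 4 libraries, against 4.63, 4.20, 5.53 and 1.55 in Ch25h+/+ Tau-. In Ch25h-/- Tau+ it was at 25.2, 11.5, 9.61 and 33.5, against 6.61, 4.35, 7.22 and 2.99 in Ch25h-/- Tau-. The groups did not overlap in either genotype, although 1 Ch25h+/+ Tau+ library lay close to the Tau- range. With tau, the log2 fold change was 2.32 ± 0.50 (SE, adjusted p = 0.0453, edgeR) in Ch25h+/+, where 0.5% of astrocyte genes were called higher, and 2.10 ± 0.34 (adjusted p = 0.00387, edgeR) over both genotypes, where 2.54% were.

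The 2 Col4a6 calls differed in how they held. The call within Ch25h+/+ was lost without any of 12 libraries in turn, those other than Ch25h+/+ Tau+ replicate 3 and Ch25h-/- Tau+ replicates 2, 3 and 4 (adjusted p up to 0.170), and also with those 2 groups fitted alone (adjusted p = 0.0730, edgeR) and without the low-count filter (adjusted p = 0.0933, edgeR). The call over both genotypes held without each of the 16 libraries (adjusted p 0.000224 to 0.0116). In the libraries numbered 1 and 2 alone the log2 fold change over both genotypes was 2.09 (adjusted p = 5.74e-05, edgeR), and in those numbered 3 and 4 alone it was also 2.09 and not called (adjusted p = 0.302). Its chromosomal partner Col4a5, at 83.1 to 112 CPM in Ch25h+/+ Tau+ and 53.2 to 88.04 in Ch25h+/+ Tau-, had a log2 fold change of 0.26 ± 0.11 over both genotypes and was not called (adjusted p = 0.258, edgeR).

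Most of the Col4a6 in astrocytes lay in a single cluster. Cluster 14, whose leading genes include Gfap, Myoc and Aqp4, held 18.5% of the astrocytes and 330 of the 453 Col4a6 UMIs (72.8%), and cluster 15 held the other 123. Cluster 14 made up 17.1% to 55.7% of a library's astrocytes in Ch25h+/+ Tau+, 4.83% to 12.3% in Ch25h+/+ Tau-, 9.68% to 32.2% in Ch25h-/- Tau+ and 6.85% to 11.8% in Ch25h-/- Tau-. Gfap, a leading gene of that cluster, read 1064 and 1077 CPM in the Tau+ groups and 670.2 and 657 in the Tau- groups of cluster 14, and 196 and 164 against 107 and 107 in cluster 15. The shares are therefore given as values only, and their part in the Col4a6 result was not tested.

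Within each cluster the level of Col4a6 was compared as well. In cluster 14 it was at 42.3 ± 9.05 CPM in Ch25h+/+ Tau+ and 7.76 ± 12.1 in Ch25h+/+ Tau-, with 61.4 ± 29.4 and 26.9 ± 11.8 in the Ch25h-/- groups. The Tau- levels there came from 5 UMIs in Ch25h+/+ and 19 in Ch25h-/-, and the Tau+ levels from 171 and 135. In cluster 15 Col4a6 was at 6.36 ± 4.66 and 3.32 ± 2.003, and at 4.75 ± 1.90 and 3.29 ± 1.21. Over both genotypes the log2 fold change with tau was 1.72 ± 0.43 in cluster 14 (adjusted p = 0.0142, edgeR), where 6.67% of genes were called. In cluster 15, where 0.00826% of genes and no collagen gene were called, it was 0.66 ± 0.37 (adjusted p = 0.779, edgeR). The call within Ch25h+/+ was made in neither cluster (adjusted p = 0.199 and 0.815, edgeR), where 0.339% and 0% of genes were called.

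Fibroblast markers, the class richest in Col4a6, had UMIs for 10 of 10 in astrocytes, with a summed level of 164 to 250.4 CPM in the Tau+ groups and 225 to 283 in the Tau- groups. Ependymal markers, 9 of 9 with UMIs, were at 19.03 to 31.2 in the Tau+ groups and 8.70 to 18.2 in the Tau- groups, and their part in the result was not tested.

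The other called astrocyte genes moved less. Col27a1 was at 40.6, 33.6, 23.3 and 25.3 CPM in Ch25h+/+ Tau+ and 23.9, 13.5, 15.7 and 13.2 in Ch25h+/+ Tau-. In the Ch25h-/- groups it was at 34.7, 37.3, 20.9 and 28.9 with tau and 23.5, 19.6, 13.5 and 14.3 without. Both pairs of groups overlapped, and the log2 fold change over both genotypes was 0.84 ± 0.16 (adjusted p = 0.00702, edgeR), a call that held without each of the 16 libraries (adjusted p up to 0.0214). It was 0.84 in the libraries numbered 1 and 2 alone (adjusted p = 0.00611, edgeR) and 0.76 in those numbered 3 and 4 (adjusted p = 0.0943). Col27a1 was at 43.7 ± 16.5 and 23.7 ± 27.99 in cluster 14 of Ch25h+/+ Tau+ and Tau-, and at 59.01 ± 19.5 and 21.1 ± 6.75 in the Ch25h-/- groups. The Tau- levels there came from 14 UMIs in Ch25h+/+ and 15 in Ch25h-/-, and the Tau+ levels from 191 and 147. In cluster 15 Col27a1 was at 19.8 ± 2.77 and 15.4 ± 2.18, and at 17.6 ± 2.73 and 17.5 ± 5.19. Over both genotypes the log2 fold change was 1.24 ± 0.34 in cluster 14 (adjusted p = 0.0270, edgeR) and 0.22 ± 0.15 in cluster 15, where it was not called (adjusted p = 0.858). Microglia are the class richest in Col27a1, and the part of free or mixed microglial RNA in its astrocyte result was not tested.

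Col9a2 was read from few counts, 1 to 19 UMIs per library. The filter needed 4 libraries at 4.58 CPM or more in astrocytes, and 4 Tau+ libraries and 0 Tau- libraries reached it, so that Col9a2 was tested only because it was high in Tau+. It was at 6.64, 4.07, 3.65 and 7.18 CPM in Ch25h+/+ Tau+ and 1.54, 2.80, 1.38 and 0.389 in Ch25h+/+ Tau-, with no overlap, and at 4.61, 3.84, 2.83 and 7.88 against 3.67, 0.544, 1.97 and 0.998 in Ch25h-/-, which overlapped. The log2 fold change over both genotypes was 1.61 ± 0.36 (adjusted p = 0.0159, edgeR), which is given as a description for that reason. Col9a2 did not pass the low-count filter at 1000 UMIs per nucleus, at the coarser clustering, with doublets kept, without 2 of the libraries in turn, in the libraries numbered 1 and 2 alone, or in either cluster alone, and it was not called in the libraries numbered 3 and 4 (2.17, adjusted p = 0.123).

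Col9a3 was at 104, 97.4, 92.6 and 58.2 CPM with tau and 73.4, 60.7, 54.9 and 49.7 without in Ch25h+/+, and at 82.9, 78.4, 79.7 and 82.04 with tau and 63.1, 66.9, 59.7 and 52.2 without in Ch25h-/-. Its groups overlapped in Ch25h+/+ and not in Ch25h-/-, with a log2 fold change of 0.45 ± 0.11 over both (adjusted p = 0.0209, edgeR). Leaving out Ch25h+/+ Tau+ replicate 1, or else Ch25h-/- Tau- replicate 4, ended the call (highest adjusted p 0.0514), as did the libraries numbered 3 and 4 alone (adjusted p = 0.207), and it held in those numbered 1 and 2 (adjusted p = 0.0495, edgeR). The change was not seen in cluster 14, where Col9a3 was at 116 and 113 CPM in Ch25h+/+ and 114 and 112 in Ch25h-/-, each with and without tau, a log2 fold change of -0.055 ± 0.24 (adjusted p = 0.948, edgeR). In cluster 15 it was at 76.2 ± 17.5 and 54.5 ± 6.33, and at 70.8 ± 7.46 and 54.98 ± 7.05, a log2 fold change of 0.41 ± 0.11 (adjusted p = 0.211, edgeR).

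Choroid markers, the class richest in Col9a3, had UMIs for 9 of 9 in astrocytes, with a summed level of 65.6 to 341 CPM in the Tau+ groups and 56.0 to 241 in the Tau- groups. The part of such free or mixed RNA in the Col9a3 result was not tested, and an estimated 4.26% of the Col9a3 level in astrocytes matched the profile of near-empty barcodes. Col9a3 also overlaps Tcfl5 on the other strand. Cluster 14 also had a call that the whole class lacked: Col23a1, a transmembrane collagen, fell there by 1.37 on the log2 scale (SE 0.27, adjusted p = 0.00258, edgeR) over both genotypes. Within Ch25h-/- it fell in cluster 14 by 1.73 on the log2 scale (SE 0.39, adjusted p = 0.0134, edgeR), the single collagen call there, where 3.15% of genes were called, and in cluster 15, where 0% were, no collagen gene was called. Within Ch25h+/+ it had -0.999 ± 0.38 in cluster 14 and was not called (adjusted p = 0.302, edgeR).

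Col6a3 in microglia read 12.3, 14.6, 39.7 and 26.4 CPM in Ch25h+/+ Tau+, while the 4 Ch25h+/+ Tau- libraries read 47.7, 65.4, 64.9 and 53.9. The groups did not overlap, and the log2 fold change was -1.48 ± 0.34 (adjusted p = 0.0254, edgeR), where 0.769% of microglial genes were called lower. In Ch25h-/- it was at 16.3, 20.2, 34.8 and 22.4 with tau and 21.8, 43.7, 45.7 and 62.7 without, which overlapped. Over both genotypes it fell by 1.21 on the log2 scale (SE 0.24, adjusted p = 0.00197, edgeR), where 3.53% were called lower. The call within Ch25h+/+ was lost without any of 7 libraries in turn, the Ch25h+/+ ones other than Tau+ replicate 3 (adjusted p up to 0.107), and the call over both genotypes held without each of the 16 (adjusted p 0.000158 to 0.00766). Over both genotypes it was -1.49 in the libraries numbered 1 and 2 alone (adjusted p = 0.000451, edgeR) and -0.96 in those numbered 3 and 4 alone (adjusted p = 0.179). Col27a1 and Col15a1, the other collagens that read highest in microglia, were not called over both genotypes (adjusted p = 0.0629 and 0.414, edgeR).

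Markers of other cells in microglia were read beside Col6a3. Fibroblast markers, 10 of 10 with UMIs, summed to 33.2 to 73.6 CPM in the Tau+ groups and 24.9 to 99.0 in the Tau- groups. Astrocyte markers, 8 of 8, were at 363 to 472 in the Tau+ groups and 419.97 to 634 in the Tau- groups, and mural markers, 8 of 9 with Kcnj8 at 0, at 6.06 to 15.03 and 6.81 to 29.01. Markers of border-associated macrophages, 7 of 7, were at 3.32 to 40.1 in the Tau+ groups and 0 to 12.4 in the Tau- groups. The part of these in the Col6a3 result was not tested.

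In oligodendrocyte precursors Col16a1 was at 89.7, 81.4, 65.6 and 80.9 CPM in Ch25h+/+ Tau+ and 61.9, 51.2, 41.3 and 39.2 in Ch25h+/+ Tau-, with no overlap. In Ch25h-/- it was at 96.5, 84.4, 50.9 and 82.1 with tau and 40.1, 55.8, 64.5 and 36.7 without, and a single Tau+ library overlapped. The log2 fold change over both genotypes was 0.69 ± 0.14 (adjusted p = 0.0188, edgeR), where 0.127% of genes were called higher. The call was lost without any of 5 libraries in turn (Ch25h+/+ Tau+ replicate 1, Ch25h+/+ Tau- replicate 4, Ch25h-/- Tau+ replicate 1 and Ch25h-/- Tau- replicates 1 and 4, adjusted p up to 0.0707). It held in the libraries numbered 1 and 2 alone (0.74, adjusted p = 0.00968, edgeR) and not in those numbered 3 and 4 (0.63, adjusted p = 0.650). Astrocyte markers in these precursors, 8 of 8 with UMIs, were at 967 to 1152 CPM in the Tau+ groups and 987 to 1198 in the Tau- groups.

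In oligodendrocytes Col16a1 was at 61.5, 33.27, 31.8 and 35.2 CPM in Ch25h+/+ Tau+ and 21.1, 28.5, 25.3 and 13.2 in Ch25h+/+ Tau-. In the Ch25h-/- groups it was at 44.3, 31.8, 38.6 and 34.8 with tau and 24.2, 22.6, 17.1 and 28.1 without. The groups did not overlap in either genotype, and the log2 fold change over both was 0.78 ± 0.16 (adjusted p = 0.0489, edgeR), where 0.143% of genes were called higher. That adjusted p lay just under the threshold, and the call was lost without any of 13 libraries in turn, those other than Ch25h+/+ Tau+ replicates 2 and 3 and Ch25h+/+ Tau- replicate 2 (adjusted p up to 0.122). It was also lost at 1000 UMIs per nucleus (adjusted p = 0.0572, edgeR) and in the libraries numbered 1 and 2 alone (0.78, adjusted p = 0.131) or 3 and 4 alone (0.79, adjusted p = 0.169). Markers of oligodendrocyte precursors in this class, 6 of 6 with UMIs, were at 55.5 to 106 CPM in the Tau+ groups and 68.5 to 92.1 in the Tau- groups. In astrocytes Col16a1 had a log2 fold change of 0.74 ± 0.32 and was not called (adjusted p = 0.298, edgeR).

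**Figure D4:**
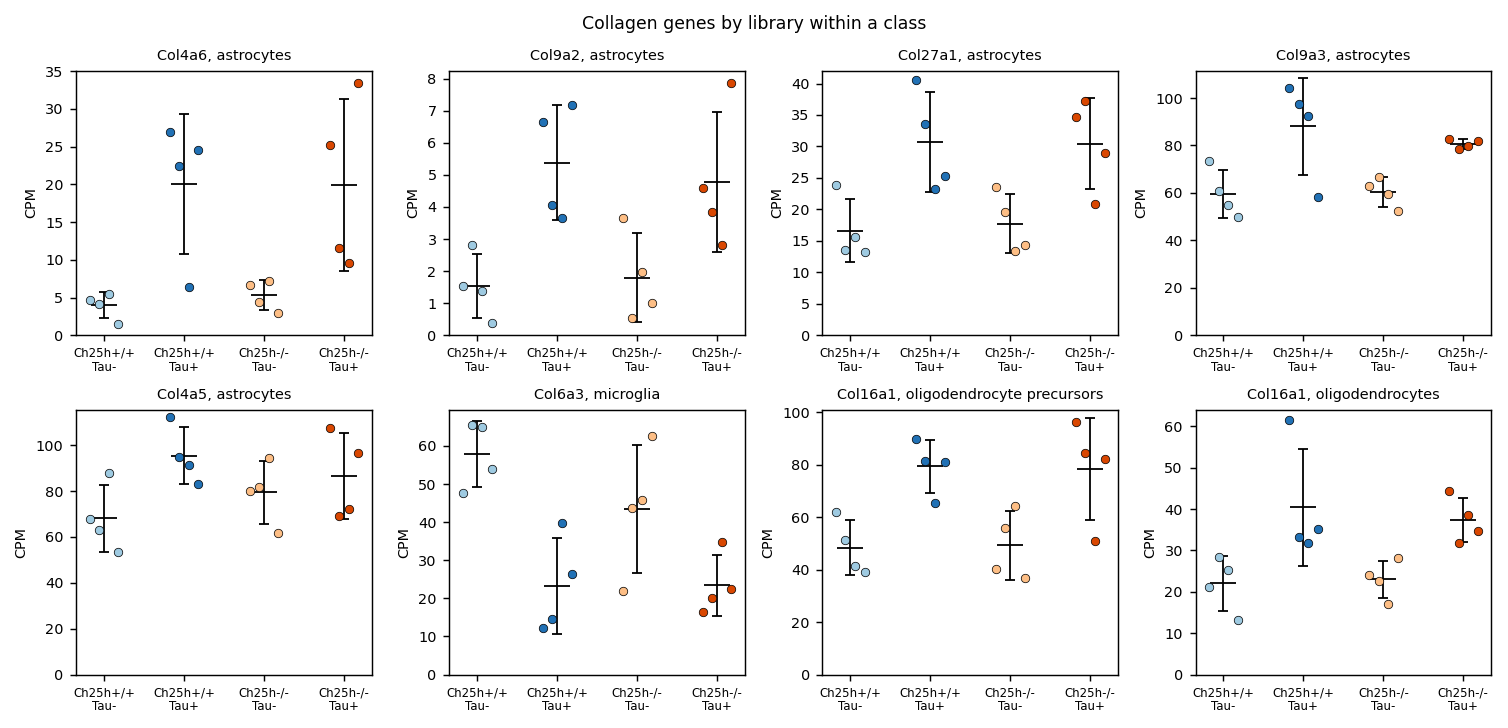
CPM per library (dots) with the mean ± SD of each group (bars) for Col4a6, Col9a2, Col27a1, Col9a3 and Col4a5 in astrocytes, Col6a3 in microglia and Col16a1 in oligodendrocyte precursors and oligodendrocytes. The Tau+ libraries of Ch25h+/+ lie above the Tau- ones for Col4a6, Col9a2 and Col16a1 and below them for Col6a3, while Col27a1, Col9a3 and Col4a5 overlap.

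Summed over all nuclei of a library, all 44 collagen genes were tested. Col9a1, Col16a1, Col5a3 and Col27a1 were higher and Col6a1 lower with tau over both genotypes, 5 calls where 4.6% of all genes were called. Within Ch25h+/+ no collagen gene was called by edgeR (0.126% of all genes), and within Ch25h-/- Col6a1 was called lower (0.673%). An unadjusted p under 0.05 was found for 12 in Ch25h+/+, 10 in Ch25h-/- and 15 over both, against 14.5%, 12.1% and 18.1% of all genes. The log2 fold change was above 0 for 33, 20 and 27 of the 44 in the same order (medians 0.37, -0.04 and 0.13), against 48.2%, 48.7% and 49.1% of all genes. In such sums, more nuclei of a class and more RNA per nucleus cannot be told apart. Oligodendrocyte markers over all nuclei, 7 of 7 with UMIs, were at 790 to 1192 CPM in the Tau+ groups and 347 to 826 in the Tau- groups, and microglial markers, 9 of 9, at 205 to 297 and 146 to 241. Fibroblasts numbered 149 to 393 nuclei per library in Ch25h+/+ Tau+ and 26 to 279 in Ch25h+/+ Tau-. In the Ch25h-/- groups they numbered 73 to 243 with tau and 4 to 380 without. Choroid nuclei numbered 161 to 292 with tau and 0 to 239 without in Ch25h+/+, and 0 to 180 and 8 to 198 in Ch25h-/-. The part of these 4 classes in the results over all nuclei was not tested.

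Col9a1 was at 3.21, 2.45, 4.05 and 3.92 CPM in Ch25h+/+ Tau+ and 2.90, 2.18, 2.03 and 0.966 in Ch25h+/+ Tau-, which overlapped. In the Ch25h-/- groups it was at 2.83, 4.23, 4.30 and 3.90 with tau and 2.26, 1.77, 1.74 and 1.11 without, with no overlap. Col9a1 had a log2 fold change over both genotypes of 0.90 ± 0.20 (adjusted p = 0.0181, edgeR). It was 0.41 in the libraries numbered 1 and 2 alone (adjusted p = 0.354, edgeR) and 1.44 in those numbered 3 and 4 (adjusted p = 0.0395). Oligodendrocytes supplied 42.1% of the Col9a1 UMIs, Cajal-Retzius cells 15.7% and astrocytes 12.1%. Oligodendrocytes were on average 18.3% of nuclei in Ch25h+/+ Tau+ and 15.5% in Ch25h+/+ Tau-, and 21.6% and 10.9% in the Ch25h-/- groups. Within oligodendrocytes Col9a1 had a log2 fold change of 0.33 ± 0.17 and was not called (adjusted p = 0.541, edgeR). Cajal-Retzius cells numbered 45 to 125 nuclei per library in the Tau+ groups and 17 to 71 in the Tau- groups. These numbers include cluster 50 of that class, where no Col9a1 UMI was found, and the nuclei of cluster 51 alone were not compared. In that class 8 Tau+ and 2 Tau- libraries reached the low-count cutoff of 56.3 CPM for Col9a1. The part of either class in the Col9a1 result was not tested.

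Col16a1 was at 20.4, 15.7, 10.9 and 12.2 CPM in Ch25h+/+ Tau+ and 8.32, 8.50, 8.12 and 7.75 in Ch25h+/+ Tau-. In the Ch25h-/- groups it was at 14.96, 11.1, 12.2 and 11.5 with tau and 7.35, 7.76, 10.6 and 8.29 without. The groups did not overlap in either genotype, and the log2 fold change over both was 0.65 ± 0.12 (adjusted p = 0.00805, edgeR). It was 0.88 in the libraries numbered 1 and 2 alone (adjusted p = 0.0303, edgeR) and 0.41 in those numbered 3 and 4 (adjusted p = 0.116). Astrocytes supplied 34.0% of the Col16a1 UMIs, the other excitatory neurons 13.7% and oligodendrocytes 13.6%.

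Col5a3 was at 4.94, 4.31, 3.89 and 3.499 CPM in Ch25h+/+ Tau+ and 2.51, 2.79, 2.36 and 2.84 in Ch25h+/+ Tau-, with no overlap. In the Ch25h-/- groups its range was 3.12 to 3.90 with tau and 2.22 to 3.12 without, so that they met. The log2 fold change over both genotypes was 0.51 ± 0.10 (adjusted p = 0.0108, edgeR), with 0.64 in the libraries numbered 1 and 2 alone (adjusted p = 0.0729) and 0.39 in those numbered 3 and 4 (adjusted p = 0.268). Astrocytes supplied 21.2% of its UMIs, oligodendrocyte precursors 16.9% and ependymal cells 16.7%, and within astrocytes Col5a3 had a log2 fold change of 0.72 ± 0.23 (adjusted p = 0.0974, edgeR). Precursor markers over all nuclei, 6 of 6 with UMIs, were at 258 to 311 CPM with tau and 220.2 to 272 without in Ch25h+/+, and at 272 to 306 and 222 to 253 in Ch25h-/-. Ependymal markers, 9 of 9, were at 62.9 to 85.8 with tau and 42.6 to 62.998 without in Ch25h+/+, and at 44.98 to 54.7 and 36.7 to 55.1 in Ch25h-/-. Their part in the Col5a3 result was not tested.

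Col27a1 over all nuclei was at 6.87 to 8.46 CPM in Ch25h+/+ Tau+ and 4.21 to 6.31 in Ch25h+/+ Tau-, with no overlap, and at 6.82 to 7.83 against 4.57 to 6.86 in Ch25h-/-, which overlapped. The log2 fold change over both genotypes was 0.41 ± 0.10 (adjusted p = 0.0304, edgeR). That call was lost without any of 8 libraries in turn (Ch25h+/+ Tau+ replicates 1, 2 and 4, Ch25h+/+ Tau- replicate 4, Ch25h-/- Tau+ replicates 2, 3 and 4 and Ch25h-/- Tau- replicate 3, adjusted p up to 0.0647) and on either side of the library split (0.31 and 0.54, adjusted p = 0.181 and 0.169, edgeR). Microglia supplied 40.1% of the Col27a1 UMIs, and their mean share of nuclei was 5.05% and 5.29% in the Tau+ groups and 3.17% and 3.45% in the Tau- groups. Within microglia the log2 fold change of Col27a1 had the other sign, -0.46 ± 0.15, and missed the threshold (adjusted p = 0.0629, edgeR).

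Col6a1 was at 14.98, 13.05, 12.6 and 11.9 CPM in Ch25h-/- Tau+ and 19.5, 20.1, 24.4 and 18.2 in Ch25h-/- Tau-, without overlap, a log2 fold change of -0.66 ± 0.13 (adjusted p = 0.0353, edgeR). That call was lost without any of 7 libraries in turn (Ch25h+/+ Tau- replicate 1, Ch25h-/- Tau+ replicates 2, 3 and 4 and Ch25h-/- Tau- replicates 2, 3 and 4, adjusted p up to 0.142), with those 2 groups fitted alone (adjusted p = 0.0697, edgeR), with doublets kept (adjusted p = 0.0767, edgeR), and on either side of the library split (-0.55 and -0.78, adjusted p = 0.440 and 0.0996, edgeR). In Ch25h+/+ the range was 12.3 to 19.997 with tau and 15.2 to 18.8 without. Over both genotypes the log2 fold change was -0.47 ± 0.09 (adjusted p = 0.0113, edgeR), with -0.36 in the libraries numbered 1 and 2 alone (adjusted p = 0.162) and -0.60 in those numbered 3 and 4 (adjusted p = 0.0601). CA3 pyramidal neurons supplied 46.5% of the Col6a1 UMIs, and their mean share of nuclei was 4.75% and 4.55% in the Tau+ groups and 5.21% and 6.05% in the Tau- groups. Within CA3 neurons Col6a1 had a log2 fold change of -0.38 ± 0.14 (adjusted p = 0.318, edgeR). Over both genotypes the Col9a1, Col16a1, Col5a3 and Col6a1 calls held without each of the 16 libraries, and Col9a1, Col5a3 and Col6a1 were not called within any of the classes tested.

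**Figure D5:**
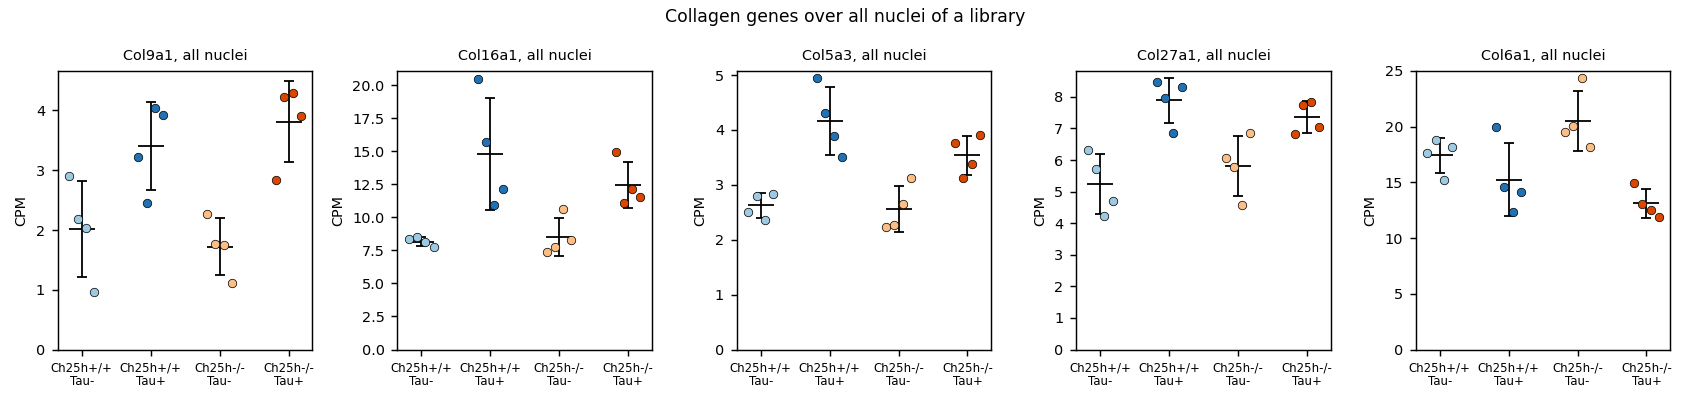
CPM over all nuclei per library (dots) with the mean ± SD of each group (bars) for Col9a1, Col16a1, Col5a3, Col27a1 and Col6a1. Col16a1 separates the Tau+ from the Tau- libraries in both genotypes, and Col9a1 and Col6a1 separate them in Ch25h-/- in opposite directions.

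In the classes richest in collagen, no collagen gene was called by edgeR in any contrast. Over all genes the share called per contrast was 0% or 0.0101% in fibroblasts and 0%, 0.00941% or 0.0188% in the choroid plexus. The median log2 fold change of the 30 fibroblast genes with tau over both genotypes was 0.00, against 0.03 over all genes, and 3 had an unadjusted p under 0.05, where 5.99% of all genes did. For the 13 choroid genes the median was 0.13, against 0.00, and 1 had an unadjusted p under 0.05, where 3.8% did. The smallest p among fibroblast collagens belonged to Col12a1 with tau in Ch25h-/-. It was at 199, 200.4, 283 and 173 CPM with tau and 124, 92.4 and 148 in the 3 Ch25h-/- Tau- libraries used, with no overlap and a log2 fold change of 0.80 ± 0.25 that was not called (adjusted p = 0.99996, edgeR). In Ch25h+/+ Col12a1 spanned 99.3 to 187 with tau and 109 to 240 without. In the choroid plexus the smallest p was that of Col4a3 with Ch25h loss in Tau-, a log2 fold change of 0.47 ± 0.18 (adjusted p = 0.99986, edgeR).

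In neurons the collagen gene with the smallest p of each class also missed the threshold. Col5a2 in CA3 pyramidal neurons came nearest, at 11.9, 9.68, 15.1 and 11.3 CPM in Ch25h-/- Tau+ and 26.9, 20.5, 36.3 and 25.3 in Ch25h-/- Tau-, with no overlap. In Ch25h+/+ it was at 29.1, 10.8, 14.8 and 22.4 with tau and 26.8, 23.5, 22.2 and 34.2 without, and the log2 fold change over both genotypes was -0.80 ± 0.17 (adjusted p = 0.0917, edgeR). It was called by DESeq2 (adjusted p = 0.00398) and with the library split as a term (adjusted p = 0.0498, edgeR). It was also called without Ch25h+/+ Tau+ replicate 1 (-0.94, adjusted p = 0.0180, edgeR) and not without any other library in turn (adjusted p up to 0.195). Col4a2 in CA1 pyramidal neurons had a log2 fold change of 0.27 ± 0.08 with tau over both genotypes (adjusted p = 0.405, edgeR), and Col6a4 in dentate granule neurons 1.65 ± 0.59 with tau in Ch25h-/- (adjusted p = 0.517). For Col6a4 in that class 6 Tau+ and 3 Tau- libraries reached the low-count cutoff of 1.20 CPM, where 4 were needed. Col11a1 in Cajal-Retzius cells had -1.39 ± 0.62 with tau in Ch25h+/+, not called over the 16 libraries and called in those numbered 3 and 4 alone (-2.44, adjusted p = 0.000372, edgeR).

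The smallest p in the other neurons came from a Ch25h loss contrast or the interaction, and none was called. Col4a5 in inhibitory neurons had a log2 fold change of -1.94 ± 0.48 with Ch25h loss in Tau+ (adjusted p = 0.99994, edgeR). Only 2 Tau+ and 5 Tau- libraries reached the low-count cutoff of 1.83 CPM for Col4a5. Col5a1 in the other excitatory neurons had 0.36 ± 0.12 with loss over both tau states (adjusted p = 0.99991, edgeR). Col19a1 in layer 6b-like neurons had 0.70 ± 0.23 for the interaction (adjusted p = 0.99982, edgeR). In ependymal cells Col25a1 was at 0 to 10.7 CPM in the 8 Tau+ libraries. It was at 1006, 48.03, 69.0 and 0 in Ch25h+/+ Tau- and 108, 0 and 1620 in the 3 Ch25h-/- Tau- libraries used, so single libraries carried the level and only Tau- libraries took it past the filter, and DESeq2 called it (adjusted p = 0.0137) where edgeR did not (adjusted p = 0.704). In mural cells Col4a3 had -0.67 ± 0.49 with tau in Ch25h+/+ (adjusted p = 0.609, edgeR), with the other sign in the libraries numbered 1 and 2 alone, a fit with 1 Ch25h+/+ Tau- library in that class. Only 1 Tau+ and 4 Tau- libraries reached the low-count cutoff of 190 CPM for Col4a3 in mural cells, where 3 were needed.

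Loss of Ch25h gave no called collagen gene in any class by edgeR. With loss in Tau+, 10 of the 232 tests had an unadjusted p under 0.05 (3.19% of all genes) and 0.00449% of all genes were called. With loss in Tau-, 15 did (3.54%) and 0.00321% were called. With loss over both tau states 13 did (3.02%) and 0.0122% were called. The interaction, which tests whether the tau effect differs between the Ch25h genotypes, had 0 calls among the collagens by edgeR, 13 at an unadjusted p under 0.05 (3.89% of all genes), and 0% of all genes called. DESeq2 also called 0 in each of these contrasts, where it called 0.0154%, 0.0205%, 0.0315% and 0.00193% of all genes in the same order. Loss in Tau- left 17 of the 18 tested astrocyte genes with a log2 fold change above 0 (median 0.25, with 49.4% of all genes above 0) and 35 of 44 over all nuclei (median 0.15, 49.2%). With loss in Tau+ 9 of 18 and 19 of 44 were above 0. The interaction was above 0 for 3 of 18 in astrocytes (median -0.32, 50.6% of all genes) and 9 of 44 over all nuclei (median -0.23, 51.1%). Over the classes its median ran from -0.39 in CA3 pyramidal neurons (4 of 22 above 0) to 0.79 in Cajal-Retzius cells (2 of 2). These contrasts share their groups with the tau contrasts. Over all nuclei, more nuclei of a class and more RNA per nucleus again cannot be told apart. Fibroblasts numbered 26 to 279 nuclei per library in Ch25h+/+ Tau- and 4 to 380 in Ch25h-/- Tau-. In Tau+ they numbered 149 to 393 in Ch25h+/+ and 73 to 243 in Ch25h-/-. Their part in the shifts over all nuclei was not tested. The tau effects called in a single Ch25h genotype were not shown to differ between the genotypes. Over all nuclei these 4 contrasts called 0 of 44 collagen genes by edgeR too, where 0.0187%, 0.00467%, 0.0327% and 0% of all genes were called in the same order. An unadjusted p under 0.05 was found for 3, 1, 2 and 4 of them, against 6%, 3.46%, 3.33% and 6.04% of all genes.

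The genes that handle collagen were taken from lists of modifying enzymes and chaperones, secretion and cross-linking proteins, receptors, proteases and basement membrane partners. Their counts are read against the 0.807% of all genes called over the 16 classes with tau over both genotypes. Of 146 class tests of the modifying enzymes 2 were called, both higher. P4ha3, a subunit of prolyl 4-hydroxylase, which stabilises the collagen helix, rose in astrocytes by a log2 fold change of 1.15 ± 0.23 (adjusted p = 0.00869, edgeR). P3h2, a prolyl 3-hydroxylase that acts on collagen IV, rose in oligodendrocyte precursors by 0.76 ± 0.14 (adjusted p = 0.00944, edgeR). Of 83 receptor tests, Ddr1, a receptor kinase activated by collagen, rose in astrocytes by 0.54 ± 0.11 (adjusted p = 0.00780, edgeR), and Adgrg1, a receptor for collagen III, fell in microglia by 0.63 on the log2 scale (adjusted p = 0.0320, edgeR). Of 13 protease tests, Mmp14, a membrane-bound collagenase, fell in astrocytes by 0.44 on the log2 scale (adjusted p = 0.0385, edgeR). None of 94 tests of secretion and cross-linking genes and of 93 of basement membrane partners was called by edgeR. Of these, 11 and 9 had an unadjusted p under 0.05, against 9.07% of all genes over the 16 classes.

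Over all nuclei, where 4.6% of all genes were called with tau over both genotypes, 5 genes of these lists were called and all were higher. Among 10 receptors these were Ddr1 (log2 fold change 0.44, adjusted p = 0.00534, edgeR) and Lair1, an inhibitory collagen receptor of immune cells (0.72, adjusted p = 0.00805, edgeR). Among 15 secretion and cross-linking genes they were Loxl3, a lysyl oxidase (0.41, adjusted p = 0.0328, edgeR), and Pcolce2, an enhancer of procollagen trimming (0.29, adjusted p = 0.0175, edgeR). Among 4 proteases it was Mmp2, a gelatinase (0.74, adjusted p = 0.0494, edgeR). Lair1, Loxl3, Pcolce2 and Mmp2 were called within no class. In these sums, too, more nuclei of a class and more RNA per nucleus cannot be told apart, and the part of nuclei numbers was not tested. None of 16 modifying enzymes and of 15 basement membrane partners was called by edgeR. Of these, 2 and 0 had an unadjusted p under 0.05, against 18.1% of all genes. No gene of these lists was called in the Ch25h loss contrasts or the interaction.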

How the data were processed

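Nuclei were sequenced with the 10x 3' v3.1 kit, per the labels' protocol. The deposited counts are UMI counts per gene and barcode made with Cell Ranger, version 4 per the file headers and 3.1.0 on mm10 per the submitters' processing notes, which also name Seurat. Whether intronic reads were counted is not given in the sources used here. Barcodes with at least 500 UMIs, 300 genes and at most 5% mitochondrial UMIs were kept, doublets removed at 0.8% per 1000 nuclei, and nuclei clustered in scanpy 1.11.5 (3000 variable genes without collagens, 50 components, Leiden resolution 2). A cluster was named from at least 3 markers. Counts summed per library and class were tested with edgeR 4.0.16 (TMM, filterByExpr, 4 group means, two-sided), with DESeq2 1.42.0 as an alternative. Each SE of an edgeR log2 fold change was derived as the size of that fold change divided by the square root of the test's F statistic. Classes with under 20 nuclei in a library entered without the libraries under 10 nuclei: fibroblasts and border-associated macrophages without Ch25h-/- Tau- replicate 2, ependymal cells without Ch25h-/- Tau- replicate 3, and choroid and mural cells without 3 libraries each. Endothelial cells and newly formed oligodendrocytes were not tested. Free RNA was estimated from barcodes with under 100 UMIs. On simulated counts with a 4-fold change, written as a log2 fold of 2, 93.3% of changed astrocyte genes and 67.0% of fibroblast genes were called. At a log2 fold of 1 these shares were 22.4% and 10.2%. Every simulated gene had the same spread, the counts held no library split, and the change was put in Ch25h+/+ Tau+ alone. Only the tau contrast in Ch25h+/+ was tested. These rates therefore do not give the power for the real counts or the other contrasts. Coordinates are from GENCODE M21 and promoters from RefSeq.

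Replicate numbers follow accession order. The members and lists were chosen with earlier results of these data known. Every gene of the rule is named with its class, and for the contrasts the called collagen genes and the gene with the smallest p of each class with none called are named. The alternatives were DESeq2, other size factors, no low-count filter, 1000 UMIs per nucleus, doublets kept, clustering at resolution 1 and a fit of each astrocyte cluster alone (both chosen after seeing the data), fits on the contrast's groups only, the library split as a term or each side of it alone, and each library left out.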

Additional observations from a re-analysis of the deposited data

Results flagged for a closer look

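Of 84 groups of 4 libraries examined for the named genes, 5 held a library far from the other 3 of its group, where chance gives about 1 in 20, or 4.2 groups. In oligodendrocytes Col16a1 was at 61.5 CPM in Ch25h+/+ Tau+ replicate 1, against 31.8 to 35.2 in the others of its group. In ependymal cells Col25a1 was at 1006 in Ch25h+/+ Tau- replicate 1, against 0 to 69.0. In Cajal-Retzius cells Col11a1 was at 229.6 in Ch25h-/- Tau+ replicate 1, against 85.7 to 103.7. In layer 6b-like neurons Col19a1 was at 251.6 in Ch25h-/- Tau- replicate 2, against 283.1 to 285.4. In the other excitatory neurons Col5a1 was at 16.5 in Ch25h+/+ Tau+ replicate 4, against 23.9 to 25.0.

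Col11a1 also read higher in a cluster that took no name than in any named cluster, at 395 CPM in cluster 55 (led by Asph, Plch2 and Stard5) against at most 235.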

How the results depend on the processing

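Each count of called collagen genes is followed by the share of all genes called under the same setting. With tau in Ch25h+/+ the 2 calls became 4 with the library split as a term (0.466%), 4 without the low-count filter (0.229%), 1 with the contrast's groups alone (0.0821%), 7 in the libraries numbered 1 and 2 alone (0.535%), 7 in those numbered 3 and 4 (0.908%), and 0 to 3 without a library in turn (0.0269% to 0.488%). With tau in Ch25h-/- the 0 calls became 3 by DESeq2 (0.353%), 1 without the filter (0.183%), 1 with the contrast's groups alone (0.183%), 2 in the libraries numbered 1 and 2 (0.405%), 6 in those numbered 3 and 4 (0.712%), and 0 to 1 without a library (0.038% to 0.358%). With tau over both genotypes the 7 calls became 11 with the split as a term (1.32%), 12 without the filter (0.546%), 8 in the libraries numbered 1 and 2 (1.12%), 8 in those numbered 3 and 4 (1.43%), and 4 to 8 without a library (0.558% to 1.09%). Of the 7, the libraries numbered 1 and 2 alone kept 5 and those numbered 3 and 4 alone kept 0. With Ch25h loss in Tau- the 0 calls became 1 in the libraries numbered 1 and 2 (0.104%), 1 in those numbered 3 and 4 (0.133%) and 0 to 1 without a library (0.00128% to 0.017%). With loss over both tau states they became 2 in the libraries numbered 1 and 2 (0.067%), and for the interaction 1 in those (0.0664%) and 1 in those numbered 3 and 4 (0.0206%). Over all nuclei and contrasts the 6 calls (0.78%) became 12 by DESeq2 (1.9%), 1 in the libraries numbered 1 and 2 (0.101%), 2 in those numbered 3 and 4 (0.349%), and 4 to 7 without a library (0.422% to 0.955%). The cause of these changes was not tested. Fits on part of the libraries also had fewer samples.

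For the named genes, 557 alternative values kept their direction and side of the threshold, 84 lost the call, 5 gained it and 2 changed direction: Col9a3 with tau over both genotypes at -0.055 in astrocyte cluster 14 alone, and Col4a3 in mural cells at 1.56 with tau in Ch25h+/+ in the libraries numbered 1 and 2 alone. That fit had 1 Ch25h+/+ Tau- library, assumed to vary like the other groups. The counts pool the called genes with the uncalled genes named for the smallest p of their class. Only called genes could lose a call, so all 84 losses are theirs, while uncalled genes that stayed uncalled are among the 557. The 557 therefore do not give the share of calls that held. The rule gave 44 genes at minimums of 20, 50 and 100 UMIs and with doublets removed. These minimums could not change the count, since the collagen gene with the fewest UMIs, Col17a1, had 552.

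The class in which a gene read highest changed for Col6a3 and Col10a1 with counts summed over libraries or free RNA taken off, Col18a1 and Col10a1 with doublets kept, and Col11a2, Col14a1, Col24a1 and Col9a1 at resolution 1. Without a library in turn it changed for Col11a1 (5 libraries), Col6a3 (1) and Col10a1 (1), and it changed for no gene at 1000 UMIs per nucleus. A minimum of 200 nuclei per class could change no placement, because it removed no class. The smallest class, endothelial cells, held 373 nuclei. Without a library the number of genes highest in fibroblasts was 15 to 16 and in the choroid plexus 6 to 7. No paired analysis was possible because the replicate numbers only follow accession order and the labels tie no library of a group to a library of another. The split of libraries fitted as a term was seen in the data and pairs no samples.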
